A study of Homo sapiens with 24 samples.

Results

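The forkhead box genes examined here were taken by symbol, as the rows of both count tables that carry FOX, a family letter from A to S and a number. The rule found 45 of the 28277 genes listed in both tables. RNA was sequenced from PEO1 and PEO4, lines of human ovarian adenocarcinoma that were set up from a single patient before and after the disease became resistant to platinum. The 24 libraries hold 3 biological replicates of each of 8 conditions and were deposited as 2 tables, here called the untreated set (6 libraries) and the PDS set (18 libraries). The untreated set compares PEO1 BRCA-, which is labelled WT, is sensitive to cisplatin and lacks functional BRCA2 through a nonsense mutation in exon 11, with PEO4, which is labelled WT, is resistant and has regained BRCA2. The PDS set holds PEO1 BRCA+, labelled BRCA2+, in which a spontaneous reversion restored BRCA2, and PEO4, each without drug and after 2 h and 6 h in 5 µM pyridostatin (PDS), a small molecule that binds G-quadruplexes, the four-stranded folds of guanine-rich DNA. Each line of the PDS set is thus set against its own untreated cells. The labels name a directional library kit for the untreated set and no kit for the PDS set. The study's methods add 2 mM sodium pyruvate to the medium of PEO1 BRCA- and its PEO4, and name none for PEO1 BRCA+ and its PEO4. The part of this difference between the sets was not tested.

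Forkhead box proteins share a winged-helix DNA-binding domain and differ in what controls them. FOXM1 is made in dividing cells and switches on genes of the G2 and M phases. FOXO proteins are kept out of the nucleus by AKT and, once released, activate genes of growth arrest, cell death and metabolism. FOXA proteins open chromatin in epithelia, while FOXC, FOXD, FOXF, FOXL and FOXQ1 are best known from the development of mesenchyme and from changes between epithelial and mesenchymal states, and FOXJ1 drives the programme of motile cilia. Many of the genes are short, have a single coding exon and lie in guanine-rich stretches of the genome.

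Library totals ran from 32528913 to 63882077 counts in the untreated set. Those of the PDS set ran from 18699929 to 22375644 in untreated cells and from 33260167 to 43713947 after PDS. Counts on ribosomal RNA genes made up 0.217 to 0.474% of untreated and 0.0164 to 0.0369% of treated libraries of the PDS set, so depth and this share moved with the treatment in both lines and their part in the results was not tested. The labels give no preparation dates, and treatment and preparation cannot be told apart. All 8 markers of ovarian carcinoma epithelium had a mean above 1 CPM (counts scaled to a common library total) in every condition. Of 5 leukocyte markers only CD68 did so, and PTPRC had at most 2 counts in a library. Of 5 fibroblast markers COL1A1 and, in PEO4, COL1A2 did so, while DCN, LUM and PDGFRA stayed below 1 CPM, and of 3 endothelial markers only PECAM1 did so, in untreated PEO4 of the PDS set. Here as in any bulk sample, fewer cells of a type and less RNA per cell cannot be told apart.

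Of the 45 genes, 34 had enough counts to be tested in both sets and FOXA3 in the PDS set alone. The other 10 (FOXB1, FOXB2, FOXE3, FOXF1, FOXI2, FOXL3, FOXN4, FOXP2, FOXR1 and FOXR2) had at most 13 counts in a library, and FOXB2, FOXI2 and FOXL3 had 0 in all 24, which allows a level of up to 3 counts per library (counting error only). A mean of at least 1 CPM was reached in all 8 conditions by 17 genes, namely FOXA1, FOXC1, FOXD1, FOXI3, FOXJ2, FOXJ3, FOXK1, FOXK2, FOXM1, FOXN2, FOXN3, FOXO1, FOXO3, FOXO4, FOXO6, FOXP1 and FOXP4. Another 16 genes reached it in some conditions but not all, and 12 in none. The number above 1 CPM was 26 in PEO1 BRCA- and 23 in PEO4 of the untreated set. The PDS set had 30, 25 and 27 in PEO1 BRCA+ at 0, 2 and 6 h, and 26, 22 and 23 in PEO4.

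**Figure D1:**
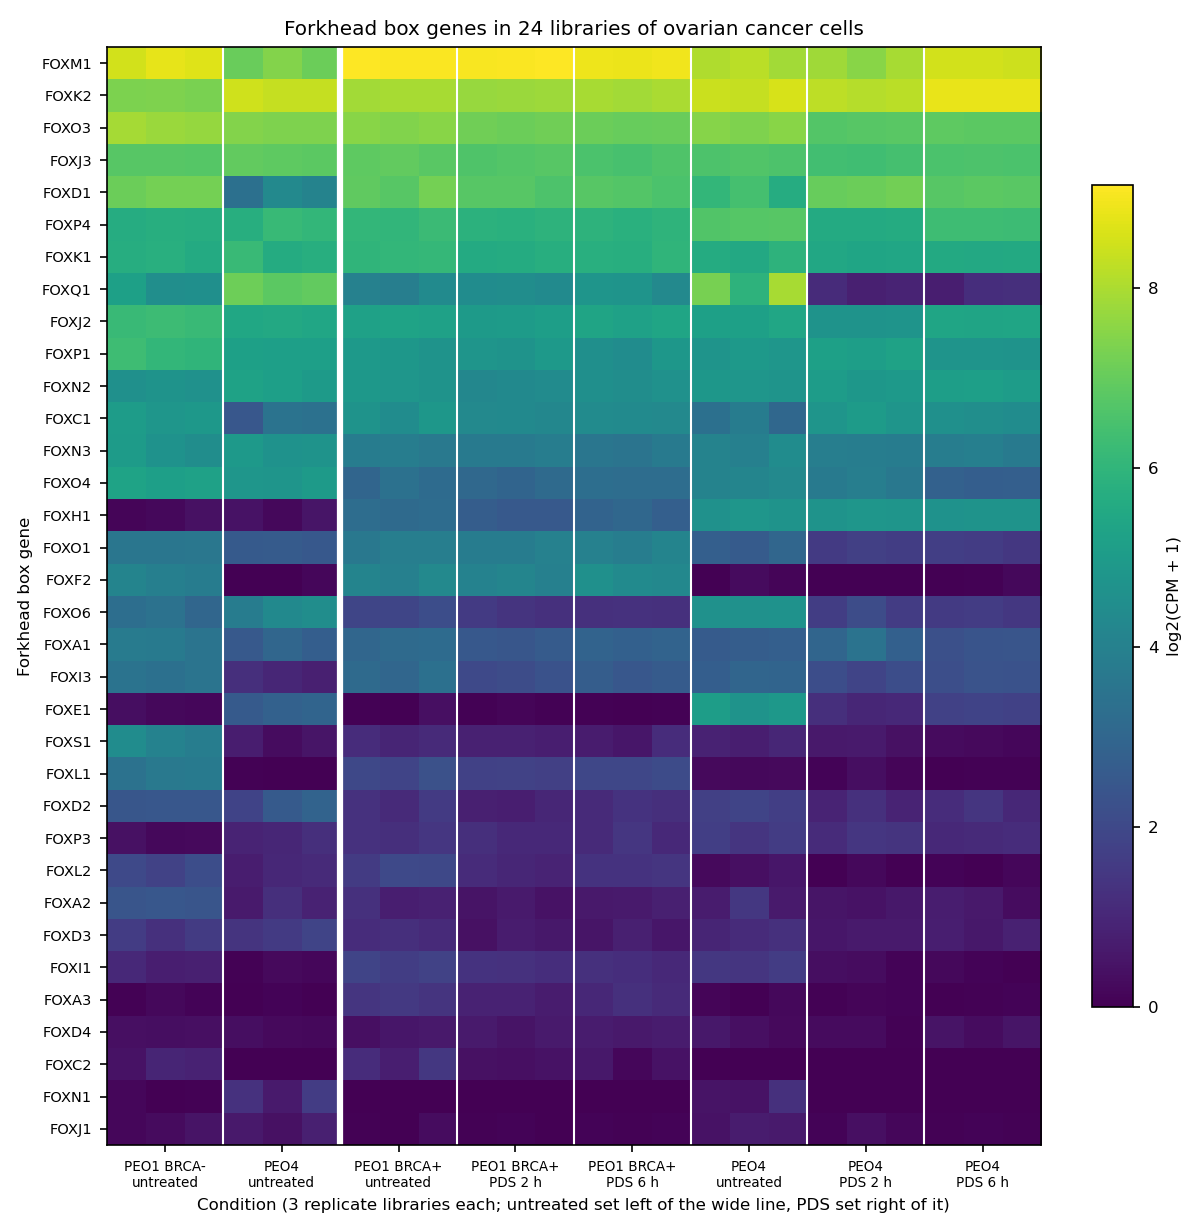
Level of 34 tested forkhead box genes (rows, from the highest mean down) in each of the 24 libraries (columns, 3 per condition), as log2(CPM + 1); the wide white line separates the untreated set from the PDS set, which were normalised separately. FOXM1, FOXK2, FOXO3 and FOXJ3 are high throughout, FOXQ1 is highest in untreated PEO4, and FOXF2 and FOXL1 are high in PEO1.

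Divided by transcript length, FOXM1 was the most abundant forkhead box mRNA in every PEO1 condition, at 82.9 ± 7.6 CPM per kb in PEO1 BRCA- and 112 ± 2.13 in untreated PEO1 BRCA+ (mean ± SD, n = 3 here and below). FOXD1 came next in PEO1, at 50.1 ± 2.93 and 43.6 ± 7.27 CPM per kb. In PEO4 the first place changed with the condition. FOXQ1 led the untreated cells of the untreated set at 46.9 ± 4.83 CPM per kb, followed by FOXK2 at 33.3 ± 1.81 and FOXM1 at 29.9 ± 4.35, and the FOXK2 and FOXM1 values lay within 1 SD of each other. In untreated PEO4 of the PDS set FOXQ1 (57.7 ± 35.3) and FOXM1 (53.4 ± 5.84) did not differ beyond their spread. After 2 h of PDS FOXD1 (47.6 ± 3.02) and FOXM1 (44.4 ± 6.71) stood together at the top, and after 6 h FOXM1 led again at 73.1 ± 1.39 CPM per kb, ahead of FOXK2 at 45.6 ± 0.331. FOXQ1 was not among the first 6 genes of treated PEO4. The order in PEO1 BRCA+ began with FOXM1, FOXD1, FOXK2, FOXO3 and FOXJ3 at all 3 times.

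The first question was how the untreated lines differ. A gene is called here when the quasi-likelihood test of edgeR gives a Benjamini-Hochberg adjusted p below 0.05 over all genes and the log2 fold change is at least 1 in size. In the untreated set 20 of 34 forkhead box genes (58.8%) were called, 6 higher and 14 lower in PEO4 than in PEO1 BRCA-, against 25.8% of all 15882 genes tested. Between untreated cells of the PDS set 16 of 35 (45.7%) were called, 7 higher and 9 lower in PEO4 than in PEO1 BRCA+, against 24.8% of 17020 genes. The calls split into 12.6% higher and 13.1% lower over all genes of the untreated set and 12.2% and 12.6% of the PDS set. By adjusted p alone 26 members (76.5%) passed in the untreated set and 25 (71.4%) in the PDS set, against 61.6% and 68.6% of all genes. The median log2 fold change was -0.45 for the forkhead box genes and -0.01 for all genes in the untreated set, and -0.09 and 0.00 in the PDS set. The median size of the change, without its sign, was 1.12 against 0.50 and 0.68 against 0.50. The 2 pairs share no library, and 12 genes were called in both, in the same direction each time. Among them FOXE1, FOXN1, FOXO6 and FOXQ1 were higher in PEO4, and FOXC1, FOXC2, FOXF2, FOXL1, FOXL2, FOXM1 and FOXO1 were lower. Another 8 were called in the untreated set alone and 3 in the PDS set alone, although the difference between the 2 sets was not tested. The share of all genes called alike in both sets was not computed, so the count of 12 has no background beside it. Some members, FOXC2, FOXF2, FOXL1 and FOXN1 among them, had enough counts to be tested only through the line where they were high. A call was then likely from the start. The counts above include such genes, and no count without them was made.

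**Figure D2:**
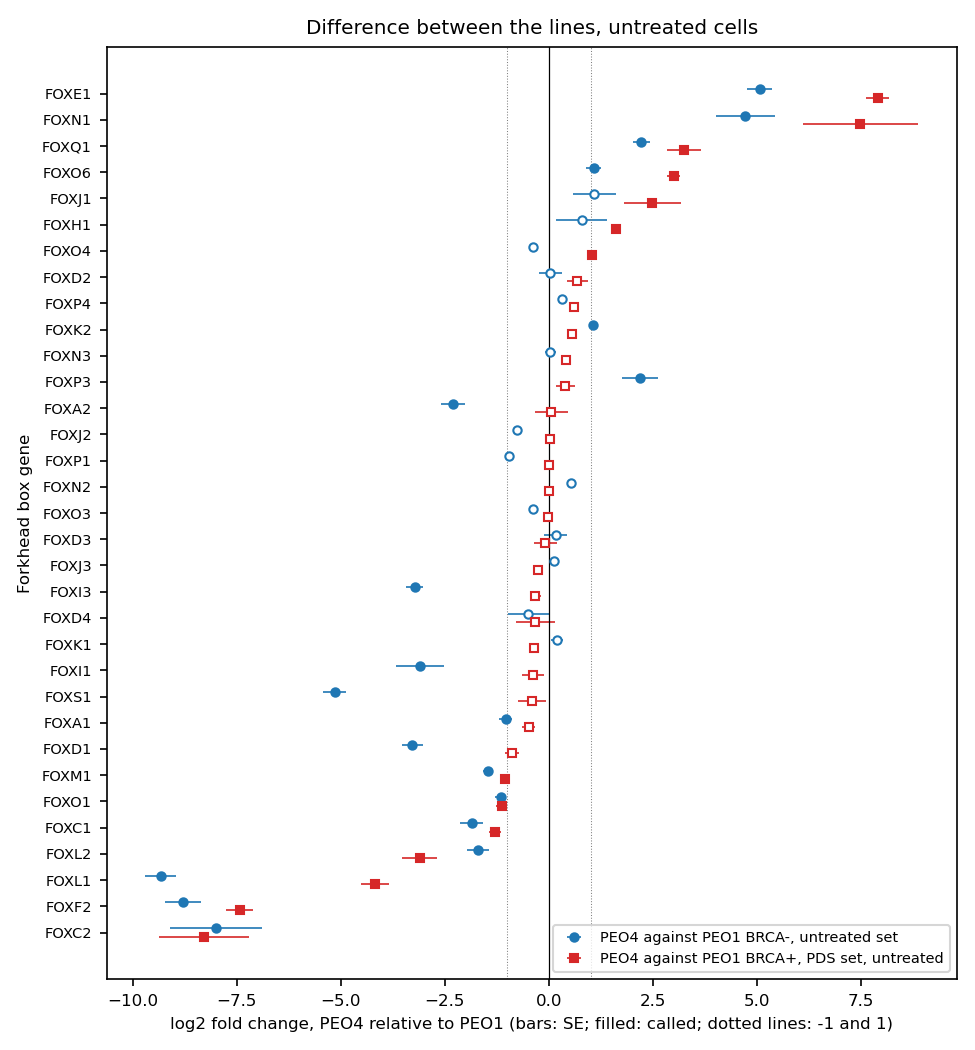
Log2 fold change of PEO4 relative to PEO1 in untreated cells (x axis; bars are SE) for 33 forkhead box genes tested in both sets (y axis, ordered by the PDS set). Circles are the untreated set and squares the PDS set, filled where the gene was called; FOXE1, FOXN1, FOXQ1 and FOXO6 are to the right in both and FOXC2, FOXF2 and FOXL1 to the left, and the fitted values of FOXC2, FOXF2, FOXL1 and FOXN1 rest on groups with few or no counts.

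FOXM1, the cell-cycle regulator, was lower in PEO4 in both sets. In the untreated set it stood at 369, 443 and 412 CPM in the 3 PEO1 BRCA- libraries and at 133, 171 and 137 CPM in PEO4. In the untreated cells of the PDS set the values were 563, 545 and 546 CPM in PEO1 BRCA+ and 264, 291 and 233 CPM in PEO4. The lines did not overlap in either set, and FOXM1 was 2.78-fold lower in PEO4 in the first (log2 fold change -1.47, SE 0.108, adjusted p = 2e-07, edgeR) and 2.1-fold lower in the second (log2 fold change -1.07, SE 0.0813, adjusted p = 4.3e-11). Without replicate 3 of untreated PEO4 the second value was -0.99, just under the threshold of size. FOXM1 shares 782 exon bases with ITFG2 on the opposite strand, and ITFG2 moved the same way (-0.76 and -0.93), so reads of the 2 genes cannot be told apart where counting was not by strand.

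Of 19 genes listed as targets of FOXM1, 4 were lower in PEO4 and none higher in the untreated set, led by the phosphatase CDC25B (log2 fold change -1.67, adjusted p = 1.2e-09) and the spindle protein HMMR (log2 fold change -1.25, adjusted p = 2.1e-06). Only CDC25B was lower in the PDS set (log2 fold change -1.58, adjusted p = 5.2e-16, edgeR), and the kinesin KIF20A was higher (log2 fold change 1.19, adjusted p = 5.2e-13). Of all genes 25.8% were called in the untreated set, 13.1% lower, and 24.8% in the PDS set. With both directions counted, neither count of the list is above the share of all genes. The 4 of 19 called lower in the untreated set are a larger share than the 13.1% of all genes called lower. By adjusted p alone 14 of the list were lower and 1 higher in the untreated set, where 61.6% of all genes passed. In the PDS set 7 were lower and 6 higher by adjusted p alone, where 68.6% of all genes passed. The median log2 fold change of the list was -0.43 and -0.09, beside -0.01 and 0.00 over all genes.

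Among the FOXO genes, FOXO6 was higher in PEO4 and FOXO1 lower, in both sets. FOXO1 stood at 11.1, 11.2 and 11.3 CPM in PEO1 BRCA- against 5.08, 5.16 and 4.71 in PEO4, and at 11.6, 14.2 and 14 CPM in untreated PEO1 BRCA+ against 5.84, 5.12 and 7.14 in PEO4. The groups did not overlap (log2 fold change -1.16, SE 0.129, adjusted p = 5.9e-06 in the untreated set and log2 fold change -1.14, SE 0.123, adjusted p = 1e-08 in the PDS set, edgeR). FOXO6 was at 8.63 ± 1.48 against 18.1 ± 4.23 CPM in the untreated set, with a log2 fold change of 1.07 (adjusted p = 0.00036), and at 2.78, 2.77 and 3.47 against 23.4, 23.6 and 24.6 CPM in the PDS set (log2 fold change 2.99, SE 0.146, adjusted p = 3e-15, edgeR). In the untreated set the FOXO6 call was lost without replicate 3 of PEO1 BRCA- (0.94) or of PEO4 (0.93). FOXO4 was called in the PDS set alone, where it was at 8.3 ± 1.38 CPM in PEO1 BRCA+ and 17.1 ± 1.31 in PEO4 (log2 fold change 1.04, adjusted p = 7e-09), with 0.93 and 0.97 when replicate 1 of untreated PEO1 BRCA+ or replicate 3 of untreated PEO4 was left out. FOXO3, the most abundant of the family, was at 237, 218 and 205 against 172, 164 and 166 CPM and at 184, 169 and 184 against 179, 165 and 184 CPM, with log2 fold changes of -0.39 and -0.02 that did not reach the threshold of size.

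Genes upstream and downstream of the FOXO proteins are given here as log2 fold changes of PEO4 against PEO1, beside 25.8% of all genes called in the untreated set (12.6% higher and 13.1% lower) and 24.8% in the PDS set (12.2% higher and 12.6% lower). Of the kinases, receptors and adaptors that feed AKT, 14 were tested in the untreated set and 2 were called, both lower in PEO4: SGK1, a kinase that phosphorylates FOXO proteins, at -4.65 (adjusted p = 4.7e-11) and the insulin receptor substrate IRS1 at -1.30 (adjusted p = 2.3e-08), by edgeR. Of 16 tested in the PDS set 2 were higher and 3 lower, with SGK1 at -2.34 (adjusted p = 3.5e-05) and IGF1R, the receptor for insulin-like growth factor, at 1.56 (adjusted p = 1.1e-12). IRS1 had the opposite direction there (1.39). Of 22 listed FOXO targets, 4 were higher and 6 lower in the untreated set, and 9 were higher and 2 lower in the PDS set. The median of the list was -0.47 against -0.01 over all genes in the untreated set and 0.82 against 0.00 in the PDS set, so its direction differed between the sets. The largest were TXNIP, an inhibitor of thioredoxin, at 2.67 (adjusted p = 0.0022) and PIK3IP1, an inhibitor of phosphoinositide 3-kinase, at -2.51 (adjusted p = 1.1e-06) in the untreated set. Those of the PDS set were TXNIP at 3.83 (adjusted p = 8.3e-10) and PDK4, a kinase that restrains pyruvate dehydrogenase, at 2.23 (adjusted p = 7.1e-08), by edgeR. PIK3IP1 had the opposite direction in the PDS set, where it was called higher in PEO4.

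FOXQ1, FOXF2 and FOXC1 lie side by side on the short arm of chromosome 6 and differed between the lines in different directions. FOXQ1, known for driving carcinoma cells towards a mesenchymal state, spans chr6:1312098-1314758 on the plus strand of GRCh38. FOXF2, a gene of the mesenchyme of gut and lung, starts 77478 bases beyond it (chr6:1389576-1395603) and FOXC1, a gene of mesenchyme and eye development, 297817 bases beyond it (chr6:1609915-1613897). Because PDS binds G-quadruplexes, the 250 bases before the start of each are given here, with the stretches that match the G-quadruplex pattern in capitals (at least 4 runs of at least 3 G with loops of 1 to 7 bases, on either strand). The sequences are those of RefSeq on GRCh38.p14, 5′ to 3′ on the plus strand, and cover chr6:1311848-1312097, chr6:1389326-1389575 and chr6:1609665-1609914. FOXF2 holds 3 matches, FOXC1 holds 1 and FOXQ1 none.
FOXQ1: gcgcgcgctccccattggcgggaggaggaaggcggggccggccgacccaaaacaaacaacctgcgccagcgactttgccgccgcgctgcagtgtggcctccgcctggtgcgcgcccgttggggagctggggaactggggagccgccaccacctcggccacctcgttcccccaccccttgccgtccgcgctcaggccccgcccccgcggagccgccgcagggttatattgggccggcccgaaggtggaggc
FOXF2: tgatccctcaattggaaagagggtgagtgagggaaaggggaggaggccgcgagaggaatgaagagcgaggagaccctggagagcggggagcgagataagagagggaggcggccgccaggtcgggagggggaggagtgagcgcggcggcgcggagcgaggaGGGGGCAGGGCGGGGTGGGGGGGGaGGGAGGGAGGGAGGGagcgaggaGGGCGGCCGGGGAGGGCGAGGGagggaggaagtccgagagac
FOXC1: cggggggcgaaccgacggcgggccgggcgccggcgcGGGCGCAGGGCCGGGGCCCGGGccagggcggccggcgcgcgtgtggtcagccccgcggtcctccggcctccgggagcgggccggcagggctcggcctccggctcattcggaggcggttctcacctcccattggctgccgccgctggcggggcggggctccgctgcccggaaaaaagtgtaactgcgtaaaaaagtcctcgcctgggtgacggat

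FOXQ1 was the gene of this cluster that was higher in PEO4. It stood at 35.8, 22 and 22.3 CPM in PEO1 BRCA- and 138, 112 and 124 CPM in PEO4 of the untreated set (log2 fold change 2.22, SE 0.197, adjusted p = 2.9e-05, edgeR). In untreated cells of the PDS set PEO1 BRCA+ was at 15.3, 14.1 and 19.6 CPM and PEO4 at 154, 59.1 and 247 CPM (log2 fold change 3.24, SE 0.404, adjusted p = 9.7e-06). The lines did not overlap in either set, but untreated PEO4 of the PDS set ranged over more than a factor of 4 between its own replicates. FOXC1 went the other way, with 31.8, 26.9 and 28.3 CPM in PEO1 BRCA- and 4.56, 10.04 and 9.73 in PEO4 (log2 fold change -1.86, adjusted p = 0.00059, edgeR), and 24.6, 20.9 and 27.5 against 9.35, 13.2 and 7.23 CPM in the PDS set (log2 fold change -1.30, adjusted p = 2.5e-07). FOXF2 was close to absent from PEO4. It had 788, 546 and 707 counts in the PEO1 BRCA- libraries and 0, 0 and 4 in PEO4, a ratio of 489 with a 95% interval of 191 to 1800. The counts were 346, 357 and 424 in untreated PEO1 BRCA+ and 0, 4 and 2 in PEO4, a ratio of 179 (82.1 to 489). These exact intervals cover counting error only.

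A second cluster, FOXF1, FOXC2 and FOXL1 on chromosome 16, was low in PEO4 throughout. FOXF1, of the same mesenchymal role as FOXF2, had at most 2 counts in any library. FOXC2, a gene of lymphatic and mesenchymal development, had 18, 34 and 45 counts in PEO1 BRCA- and 0 in every PEO4 library of both sets. Set against a floor of 3 counts in each PEO4 library, FOXC2 was higher by at least 9.54-fold in PEO1 BRCA- and, from 26, 17 and 41 counts, at least 8.95-fold higher in untreated PEO1 BRCA+. FOXL1, a gene of the intestinal mesenchyme, had 477, 449 and 655 counts in PEO1 BRCA- against 2, 0 and 0 in PEO4, a ratio of 758 (210 to 6270). Without drug it had 62, 65 and 86 counts in PEO1 BRCA+ against 4, 3 and 4 in PEO4 (log2 fold change -4.18, SE 0.335, adjusted p = 4.7e-11, edgeR). A long noncoding RNA of the same stretch, LINC02188, which lies 211564 bases from the start of FOXF1, was lower in PEO4 as well (-7.15 and -3.87), while MTHFSD, 19659 bases from it, was not called in any comparison.

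FOXD1 and FOXS1 were called in the untreated set, and FOXD2 and FOXD3 were not (log2 fold change 0.03, adjusted p = 0.93 and 0.16, adjusted p = 0.63). FOXD1, a regulator of kidney stroma (chr5:73446266-73448777, minus strand), was at 134, 148 and 149 CPM in PEO1 BRCA- and 9.45, 19 and 16.2 CPM in PEO4 (log2 fold change -3.29, SE 0.252, adjusted p = 3.5e-05, edgeR). FOXD1 values in untreated cells of the PDS set were 118, 108 and 148 against 66.2, 86.5 and 49.5 CPM, and its log2 fold change of -0.89 did not reach the threshold of size. FOXS1, which marks neural crest derivatives and pericytes, was at 20.9, 15.5 and 13.8 against 0.647, 0.227 and 0.429 CPM in the untreated set (log2 fold change -5.15, SE 0.282, adjusted p = 2.6e-08), but at 1.11 ± 0.15 and 0.831 ± 0.132 CPM in the PDS set (log2 fold change -0.41, adjusted p = 0.28). Each of the called differences separated the 3 libraries of one line from the 3 of the other.

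FOXE1, a regulator of thyroid development (chr9:97853226-97856717, plus strand), had the largest fitted gain in PEO4 of the members in both sets. The 250 bases before its start (chr9:97852976-97853225, GRCh38.p14, plus strand) hold 1 match to the G-quadruplex pattern, in capitals.
FOXE1: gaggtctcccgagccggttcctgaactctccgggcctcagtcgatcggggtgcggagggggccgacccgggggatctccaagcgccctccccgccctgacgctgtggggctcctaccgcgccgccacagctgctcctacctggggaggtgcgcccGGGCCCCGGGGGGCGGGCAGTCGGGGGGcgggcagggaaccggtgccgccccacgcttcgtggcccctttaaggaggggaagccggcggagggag

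FOXE1 stood at 0.251, 0.16 and 0.113 CPM in PEO1 BRCA- and 4.98, 6.13 and 6.64 CPM in PEO4 of the untreated set (log2 fold change 5.06, SE 0.303, adjusted p = 2.3e-08, edgeR). In untreated cells of the PDS set it had 1, 0 and 7 counts in PEO1 BRCA+ and 766, 496 and 615 in PEO4, a ratio of 246 (125 to 571). FOXN1, the regulator of the thymic epithelium, was also found in PEO4 and next to absent from PEO1. It had 5, 0 and 2 counts in PEO1 BRCA- and 96, 21 and 68 in PEO4, a ratio of 27.6 (13.1 to 69.5). In untreated cells of the PDS set it had 0, 0 and 0 counts in PEO1 BRCA+ and 9, 7 and 30 in PEO4, which made it at least 5.32-fold higher in PEO4 with a floor of 3 counts per library.

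FOXA1 and FOXA2 were called in the untreated set alone and FOXA3 in the PDS set, the only one in which it was tested. FOXA1, the pioneer factor of hormone-responsive epithelia, stood at 12.9, 12.7 and 10.4 CPM in PEO1 BRCA- and 4.93, 7.03 and 5.6 CPM in PEO4 of the untreated set. The PEO1 BRCA+ values of the PDS set were 7.04, 7.93 and 8.12 CPM without PDS, 4.72, 4.42 and 5.1 at 2 h and 6.46, 5.91 and 6.52 at 6 h, and those of PEO4 were 5.2, 5.42 and 5.85, 6.8, 10.1 and 5.93 and 3.72, 4.21 and 4.37 CPM. It was lower in PEO4 in the untreated set (log2 fold change -1.04, adjusted p = 0.0001, edgeR) and did not reach the threshold of size in the PDS set (-0.49). The first call was lost without replicate 1 of PEO1 BRCA- (-0.98) or of PEO4 (-0.92) and with upper-quartile scaling (-0.98). FOXA2, a factor of endoderm and of glandular epithelium, stood at 4.37, 4.56 and 4.36 CPM in PEO1 BRCA- and 0.586, 1.36 and 0.827 CPM in PEO4 of the untreated set. The PEO1 BRCA+ values of the PDS set were 1.39, 0.702 and 0.79 CPM without PDS, 0.409, 0.569 and 0.358 at 2 h and 0.542, 0.576 and 0.763 at 6 h, and those of PEO4 were 0.606, 1.81 and 0.599, 0.417, 0.368 and 0.504 and 0.668, 0.549 and 0.239 CPM. It was lower in PEO4 in the untreated set (log2 fold change -2.30, SE 0.284, adjusted p = 1.6e-05), whereas the log2 fold change in the PDS set was 0.05 (adjusted p = 0.92). FOXA3 was tested in the PDS set alone and had 35, 45 and 36 counts in untreated PEO1 BRCA+ against 2, 0 and 3 in PEO4, a ratio of 22.1 (9.21 to 69.4).

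FOXL2, FOXI3 and FOXI1 were lower and FOXP3 higher in PEO4 of the untreated set. FOXL2, the regulator of granulosa cells, stood at 3.1, 2.46 and 3.42 CPM in PEO1 BRCA- and 0.678, 1.02 and 1.1 CPM in PEO4 of the untreated set. The PEO1 BRCA+ values of the PDS set were 2.01, 3.06 and 2.99 CPM without PDS, 1.2, 0.957 and 0.895 at 2 h and 1.52, 1.52 and 1.67 at 6 h, and those of PEO4 were 0.173, 0.301 and 0.461, 0, 0.141 and 0 and 0.0716, 0 and 0.12 CPM. It was lower in PEO4 in both sets (log2 fold change -1.71, SE 0.272, adjusted p = 0.00014 and log2 fold change -3.11, SE 0.411, adjusted p = 3.1e-07, edgeR). FOXI3, a gene of the ectoderm and its appendages, stood at 10.1, 9.29 and 10.3 CPM in PEO1 BRCA- and 1.34, 0.993 and 0.735 in PEO4 (log2 fold change -3.23, SE 0.21, adjusted p = 5e-08). Its log2 fold change in the PDS set was -0.33 (adjusted p = 0.038). FOXI1, the regulator of ionocytes, was lower in PEO4 in the untreated set (log2 fold change -3.10, adjusted p = 0.00042), from 51, 26 and 40 to 2, 6 and 4 counts, and had a log2 fold change of -0.39 (adjusted p = 0.18) in the PDS set. FOXP3, the regulator of regulatory T cells, was higher in PEO4 in the untreated set (log2 fold change 2.19, adjusted p = 0.0008), at 0.228 ± 0.0938 against 1.07 ± 0.273 CPM, and it shares 83 exon bases with CCDC22 on the opposite strand. No leukocyte marker but CD68 passed 1 CPM there.

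FOXH1, a partner of SMAD proteins in nodal signalling, was higher in PEO4 in the PDS set, at 8.58, 7.89 and 8.39 CPM in PEO1 BRCA+ against 23.9, 26.7 and 25.1 CPM in PEO4 (log2 fold change 1.61, SE 0.0869, adjusted p = 2.3e-14, edgeR). FOXH1 shares 791 exon bases with KIFC2 on the opposite strand, and KIFC2 was higher in PEO4 too, from 36.7 to 123 CPM (1.74). In the untreated set, made with a kit that keeps the strand, FOXH1 stood at only 0.179 and 0.313 CPM, while KIFC2 stood at 59.3 and 113 CPM. The strand setting of the counting is not given in the sources used here, and the part of KIFC2 in the FOXH1 values was not tested. FOXJ1, the regulator of motile cilia, never reached 1 CPM. It had 6, 8 and 21 counts in PEO1 BRCA- and 34, 12 and 24 in PEO4, and in the PDS set 1, 0 and 5, 1, 2 and 0 and 2, 1 and 2 counts in PEO1 BRCA+ at 0, 2 and 6 h and 8, 12 and 13, 2, 10 and 5 and 2, 2 and 1 in PEO4. It was called between untreated PEO4 and PEO1 BRCA+, with a ratio of 5.77 (2.39 to 16.8). Of 17 tested genes listed as ciliary targets of FOXJ1, 3 were higher and 1 lower in PEO4 of the untreated set, and 3 were higher and 2 lower in the PDS set, near the 25.8% and 24.8% of all genes called. HYDIN, a protein of the central pair of the ciliary axoneme, was lower in both (log2 fold change -2.37, adjusted p = 8.5e-07 and -2.01, adjusted p = 9.1e-08, edgeR), while the next in size were RSPH9 (log2 fold change 1.20, adjusted p = 0.034) and TPPP3 (log2 fold change 1.43, adjusted p = 0.0045), both higher.

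Of FOXK1, FOXK2, FOXP1 and the other genes given next, FOXK2 alone was called between the untreated lines. FOXK2, a repressor of genes of starvation and autophagy, stood at 162, 164 and 155 CPM in PEO1 BRCA- and 353, 323 and 321 CPM in PEO4 of the untreated set. The PEO1 BRCA+ values of the PDS set were 232, 245 and 247 CPM without PDS, 211, 219 and 221 at 2 h and 248, 236 and 249 at 6 h, and those of PEO4 were 342, 323 and 384, 302, 280.4 and 295 and 458, 456 and 452 CPM. It was higher in PEO4 in the untreated set (log2 fold change 1.05, SE 0.0738, adjusted p = 1e-07, edgeR) and short of the threshold of size in the PDS set (0.54). FOXK1, its close relative, stood at 50.8, 53.4 and 46.7 CPM in PEO1 BRCA- and 71.6, 48.2 and 52.5 CPM in PEO4 of the untreated set. The PEO1 BRCA+ values of the PDS set were 61.5, 66.2 and 67.1 CPM without PDS, 46.7, 48.8 and 51.9 at 2 h and 53.1, 51.8 and 61.8 at 6 h, and those of PEO4 were 48.3, 44.8 and 59.7, 43.6, 40.9 and 41.8 and 46.2, 44.8 and 45.9 CPM. FOXP1, a repressor active in many tissues, stood at 77.1, 65.4 and 62 CPM in PEO1 BRCA- and 35.8, 34.5 and 35 CPM in PEO4 of the untreated set. The PEO1 BRCA+ values of the PDS set were 29.7, 27.3 and 24.9 CPM without PDS, 26.4, 24.7 and 29.3 at 2 h and 22.2, 21 and 27.5 at 6 h, and those of PEO4 were 25.6, 30.03 and 26.8, 35.6, 33.6 and 37.3 and 25.3, 25.8 and 25.2 CPM. The log2 fold changes of FOXK1 were 0.19 and -0.35 and those of FOXP1 were -0.96 and 0.01, none called. FOXJ2, FOXJ3, FOXN2, FOXN3 and FOXP4 were not called between the lines either, with log2 fold changes between -0.78 (FOXJ2, untreated set) and 0.61 (FOXP4, PDS set). Of 19 listed partners of forkhead box proteins, 2 were lower in PEO4 of the untreated set, the corepressors TLE4 (log2 fold change -2.26, adjusted p = 8.9e-06) and TLE1 (log2 fold change -1.69, adjusted p = 1.3e-08). Of the same partners 1 was higher and 3 were lower in the PDS set, led by TLE1 (log2 fold change -1.47, adjusted p = 2e-17) and SMAD3 (log2 fold change -1.33, adjusted p = 2.8e-14, edgeR). Both counts are below the shares of all genes called, 25.8% and 24.8%.

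The next question was how the genes changed with PDS. In PEO4, 17 of 35 forkhead box genes (48.6%) were called after 2 h, 2 higher and 15 lower, against 17.4% of all genes (6.4% higher and 11% lower). After 6 h 13 (37.1%) were called, 2 higher and 11 lower, against 22.6% of all genes (6.26% higher and 16.3% lower). FOXJ1 and FOXN1, counted among the lower ones, had enough counts to be tested only through untreated PEO4, so their calls were likely from the start. In PEO1 BRCA+ 6 (17.1%) were called after 2 h and 3 (8.57%) after 6 h, all lower, against 7.57% (6.39% lower and 1.18% higher) and 8.13% (6.83% lower and 1.29% higher) of all genes. By adjusted p alone 19 members were lower and 0 higher in PEO1 BRCA+ at 2 h, where 26.2% of all genes were lower and 26.4% higher (52.6% together), and 13 were lower and 0 higher at 6 h, where 26% were lower and 27% higher (53%). In PEO4 the counts by adjusted p alone were 24 lower and 5 higher at 2 h, against 32 and 33.3% of all genes (65.3%), and 20 lower and 6 higher at 6 h, against 35.2 and 34.6% (69.8%). Decreases were thus, without the threshold of size, all or most of the members that passed, where all genes were split about evenly. With that threshold the calls over all genes were mostly decreases too. The median log2 fold change of the forkhead box genes was -0.57 and -0.70 in PEO4 and -0.38 and -0.24 in PEO1 BRCA+ at 2 h and 6 h, and that of all genes lay between -0.03 and 0.00. Both times of a line were compared with the same 3 untreated libraries. Scaling by library totals moved the median of all genes by between -0.16 and -0.13 in the 4 comparisons. With it the called genes were 1 higher and 15 lower, then 1 higher and 13 lower in PEO4, and 8 and then 5 lower in PEO1 BRCA+. The share of all called genes that were lower went from 72.3 to 82.7% in PEO4 at 6 h. Markers of other cell types moved in PEO4 as well. The summed level of the 5 fibroblast markers was 29.7 to 31 CPM in untreated PEO4, 8.35 to 11.9 at 2 h and 3.34 to 4.52 at 6 h, with DCN, LUM and PDGFRA at no more than 8 counts in any of these libraries. That of the 3 endothelial markers was 1.31 to 2.72, 0.408 to 0.764 and 0.061 to 0.191 CPM, with CDH5 at 0. That of the 5 leukocyte markers was 32.2 to 54.5, 67.5 to 78.4 and 68 to 78 CPM, with PTPRC at 0. Their part in the results was not tested.

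**Figure D3:**
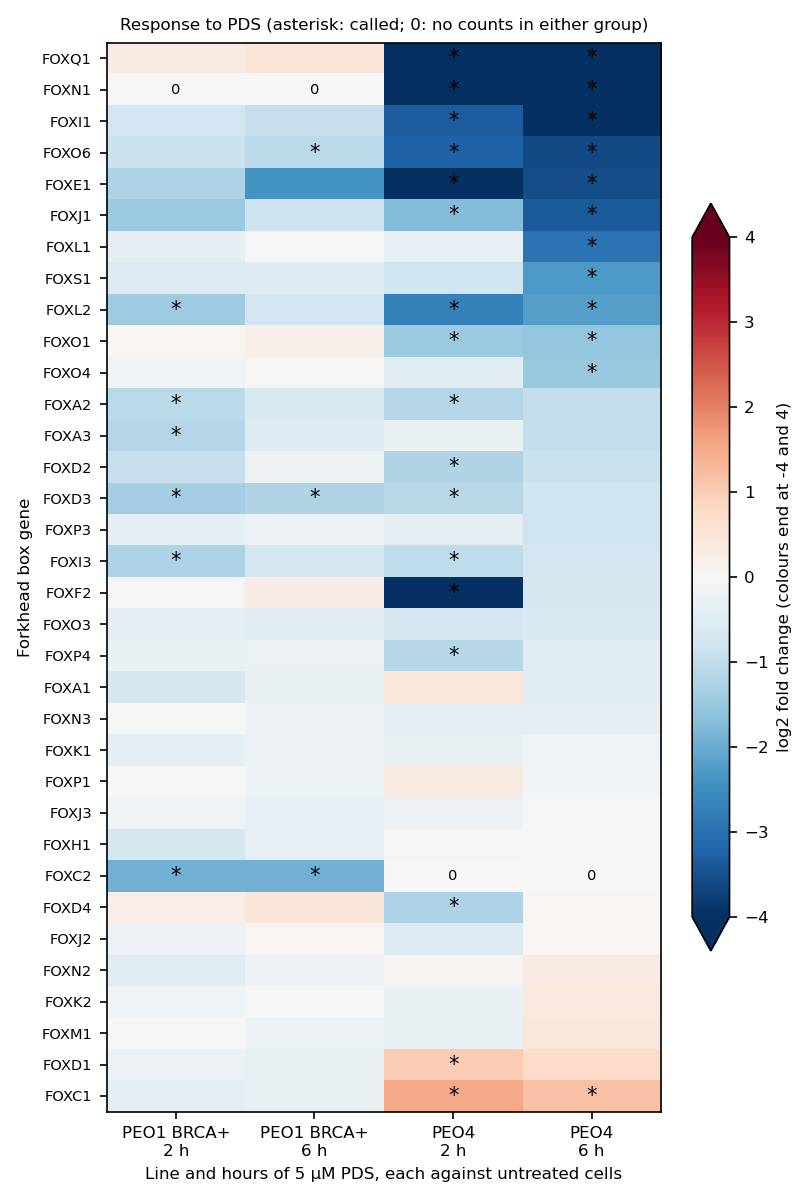
Log2 fold change of 34 tested forkhead box genes (rows, ordered by PEO4 at 6 h) after 2 h and 6 h in 5 µM PDS, each against the untreated cells of the same line (columns); the 2 times of a line share those 3 untreated libraries. An asterisk marks a called gene, 0 a gene with no counts in either group, and colours end at -4 and 4. FOXQ1, FOXI1, FOXO6 and FOXE1 are the deepest decreases in PEO4 that rest on more than a few counts, FOXC1 and FOXD1 are higher there, and no gene was called higher in PEO1 BRCA+.

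FOXQ1 had the steepest fall of the well-measured members, and only in PEO4. Its 3 libraries went from 154, 59.1 and 247 CPM without drug to 1.17, 0.736 and 0.864 CPM at 2 h and 0.692, 1.31 and 1.35 CPM at 6 h. The lowest untreated library was thus far above the highest treated one, and the fall was 166-fold at 2 h (log2 fold change -7.38, SE 0.553, adjusted p = 7.4e-08, edgeR) and 137-fold at 6 h (log2 fold change -7.14, SE 0.544, adjusted p = 6.5e-08). With 1 of the untreated libraries left out the log2 fold change at 2 h ran from -7.76 to -6.85. In PEO1 BRCA+ FOXQ1 stood at 15.3, 14.1 and 19.6 CPM without drug, 20.8, 21.2 and 19.6 at 2 h and 26, 25.4 and 18.8 at 6 h, with log2 fold changes of 0.33 (adjusted p = 0.53) and 0.52 (adjusted p = 0.31). The difference between the responses of the 2 lines was itself called at both times (log2 fold change -7.71, SE 0.702, adjusted p = 2.3e-06 at 2 h and log2 fold change -7.66, SE 0.69, adjusted p = 1.5e-06 at 6 h). FOXQ1 was 9.4-fold higher in PEO4 than in PEO1 BRCA+ without drug and 22.2-fold and 20.9-fold lower at 2 h and 6 h, so the order of the lines changed with PDS.

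Its neighbour FOXC1 moved the opposite way in the same cells. FOXC1 rose in PEO4 from 9.35, 13.2 and 7.23 CPM to 26.5, 31.5 and 26.2 CPM at 2 h and 23.1, 22.1 and 20.8 CPM at 6 h, with no overlap with the untreated libraries (log2 fold change 1.51, SE 0.143, adjusted p = 3.1e-08 and log2 fold change 1.16, SE 0.145, adjusted p = 8.7e-07, edgeR). At 6 h the call was lost with library totals, just at the threshold of size, and without replicate 3 of untreated PEO4 (0.98). In PEO1 BRCA+ it was at 24.6, 20.9 and 27.5, 18.9, 19.1 and 17.9 and 20.4, 19.9 and 18.6 CPM (log2 fold change -0.38, adjusted p = 0.022 and -0.31, adjusted p = 0.061), and the difference between the lines' responses was called at both times (log2 fold change 1.89, SE 0.196, adjusted p = 4.9e-07, and log2 fold change 1.46, SE 0.197, adjusted p = 7.6e-06). After PDS the difference between the lines was below the threshold of size (log2 fold change 0.59, adjusted p = 0.00045 at 2 h and 0.17, adjusted p = 0.27 at 6 h). FOXF2, which lies between the 2 genes, had 0, 4 and 2 counts in untreated PEO4, 0, 0 and 0 at 2 h and 0, 1 and 5 at 6 h. It was called lower at 2 h (adjusted p = 0.019), but the groups overlapped, the call was lost without replicate 2 of untreated PEO4 (adjusted p = 0.11), and both groups were near the floor of 3 counts per library. In PEO1 BRCA+ FOXF2 stood at 16.6, 14.8 and 18.6 CPM without drug, 15.8, 16.8 and 14.7 at 2 h and 23.1, 19.9 and 18.2 at 6 h (log2 fold change -0.08, adjusted p = 0.67 and 0.29, adjusted p = 0.087). The noncoding RNA FOXCUT, 293433 bases from the start of FOXQ1 and next to FOXC1, rose in PEO4 from 3, 4 and 1 counts to 31, 22 and 36 and 19, 20 and 12 (log2 fold change 2.63, adjusted p = 5.3e-05 and 1.90, adjusted p = 0.0029). It was called lower in PEO1 BRCA+ at 6 h (log2 fold change -2.58, adjusted p = 0.009), on 5, 4 and 4 counts without drug and 1, 0 and 2 at 6 h. GMDS, the next gene beyond FOXC1, had log2 fold changes of 0.92 and 0.52 in PEO4, below the threshold of size.

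**Figure D4:**
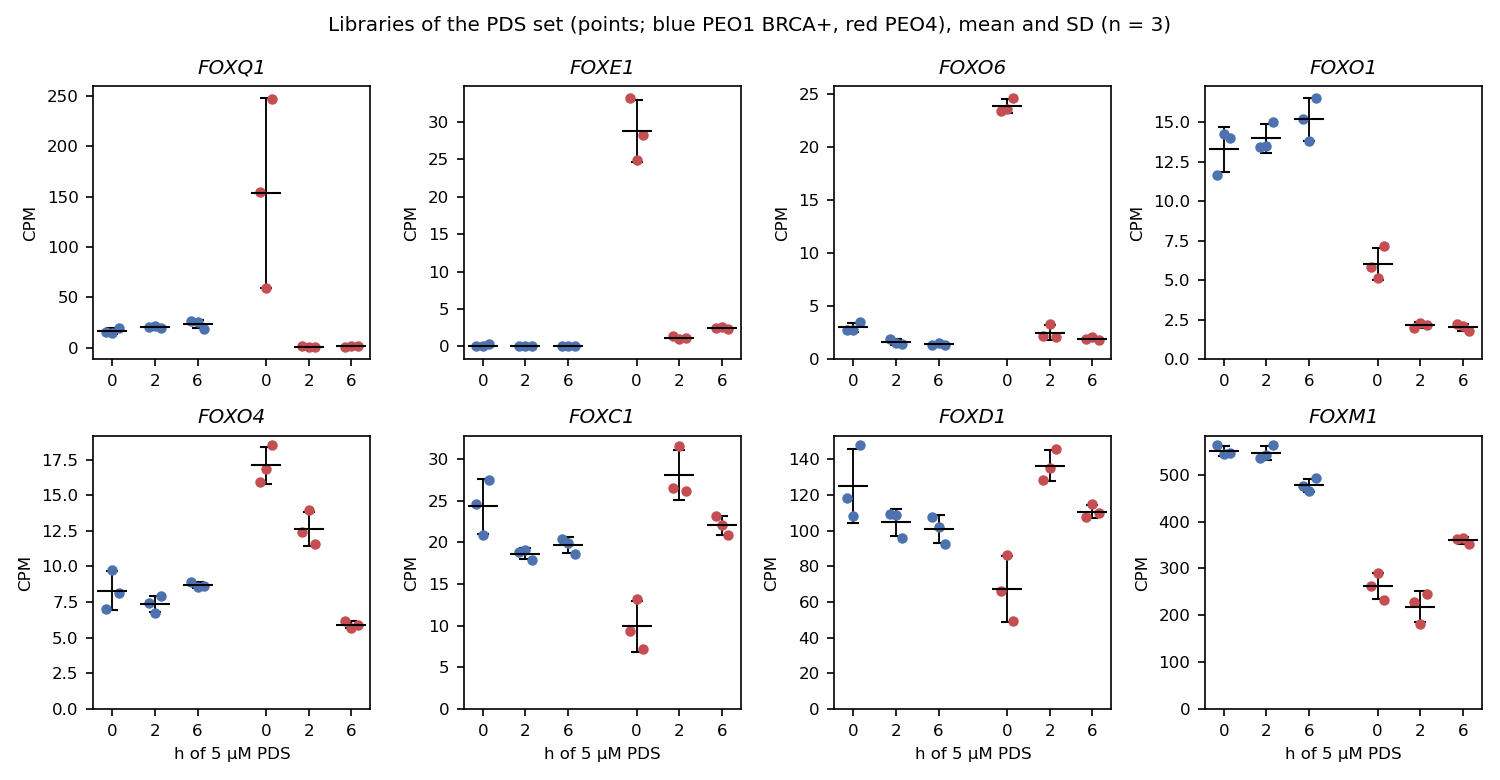
Level in CPM (y axes, from 0) of 8 forkhead box genes in the 18 libraries of the PDS set after 0, 2 and 6 h of 5 µM PDS (x axes). Points are libraries, blue for PEO1 BRCA+ and red for PEO4, and the black marks are the mean and SD (n = 3). FOXQ1, FOXE1, FOXO6 and FOXO1 drop in PEO4 at both times, FOXO4 at 6 h, and FOXC1 and FOXD1 are higher after PDS in PEO4.

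FOXE1 and FOXO6, both far higher in untreated PEO4 than in PEO1 BRCA+, lost most of that level. FOXE1 went from 33.2, 24.9 and 28.3 CPM to 1.36, 0.991 and 1.08 at 2 h and 2.43, 2.59 and 2.4 at 6 h, a fall of 25.2-fold and then 11.6-fold (log2 fold change -4.65, SE 0.187, adjusted p = 3.9e-16 and log2 fold change -3.54, SE 0.17, adjusted p = 5.7e-15, edgeR). Between 2 h and 6 h FOXE1 recovered in part (log2 fold change 1.11, adjusted p = 8.7e-05). In PEO1 BRCA+ it had 1, 0 and 7 counts without drug, 1, 3 and 1 at 2 h and 1, 0 and 1 at 6 h, too few to follow. FOXO6 went from 23.4, 23.6 and 24.6 CPM in PEO4 to 2.17, 3.31 and 2.06 and 1.96, 2.08 and 1.83 CPM, 9.49-fold and 12.2-fold lower (log2 fold change -3.25, SE 0.14, adjusted p = 1.3e-15 and log2 fold change -3.61, SE 0.146, adjusted p = 2.8e-16). In PEO1 BRCA+ FOXO6 stood at 2.78, 2.77 and 3.47 CPM without drug, 1.95, 1.58 and 1.43 at 2 h and 1.38, 1.49 and 1.38 at 6 h, and was called lower at 6 h alone (log2 fold change -1.09, adjusted p = 2.1e-05), with -0.96 when replicate 3 of the untreated cells was left out. The fall was deeper in PEO4 at both times (difference log2 fold change -2.39, adjusted p = 1.3e-08 and -2.52, adjusted p = 6.7e-09), and after PDS the lines differed by 0.60 and 0.46 only.

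FOXO1 and FOXO4 fell in PEO4 and were not called in PEO1 BRCA+. FOXO1 went in PEO4 from 5.84, 5.12 and 7.14 CPM to 1.94, 2.32 and 2.16 and 2.22, 2.08 and 1.77 CPM, without overlap (log2 fold change -1.50, SE 0.142, adjusted p = 1.8e-09 and log2 fold change -1.57, SE 0.144, adjusted p = 6.4e-10, edgeR). In PEO1 BRCA+ FOXO1 stood at 11.6, 14.2 and 14 CPM, 13.4, 13.4 and 15 at 2 h and 15.2, 13.8 and 16.5 at 6 h (log2 fold change 0.07, adjusted p = 0.62 and 0.19, adjusted p = 0.15), and the responses differed (log2 fold change -1.57, adjusted p = 2.1e-07 and -1.76, adjusted p = 2.6e-08). FOXO4 fell in PEO4 at 6 h, from 15.9, 16.8 and 18.5 CPM to 12.4, 13.9 and 11.6 at 2 h and 6.18, 5.71 and 5.87 at 6 h. Its change was -0.44 (adjusted p = 0.00054) at 2 h, below the threshold of size, and log2 fold change -1.53, SE 0.108, adjusted p = 6.4e-12 at 6 h. PEO1 BRCA+ was at 8.3 ± 1.38, 7.36 ± 0.582 and 8.7 ± 0.192 CPM for FOXO4, and the responses differed at 6 h (log2 fold change -1.59, adjusted p = 1.1e-08). FOXO3 was lower after PDS in both lines by adjusted p, but never by the threshold of size. In PEO4 FOXO3 stood at 179, 165 and 184, 104, 108 and 110.1 and 118, 115 and 113 CPM (log2 fold change -0.72, adjusted p = 2.6e-11 and -0.62, adjusted p = 2.5e-10), and in PEO1 BRCA+ at 184, 169 and 184, 141, 137 and 143 and 135, 127 and 133 CPM (log2 fold change -0.35, adjusted p = 5.8e-06 and -0.44, adjusted p = 2e-07). The near-identical copy FOXO3B was called lower in PEO4 at 2 h (-1.55) and higher again from 2 h to 6 h (1.38), and how reads were split between the 2 is not known.

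Of the 22 FOXO targets, 3 were lower in PEO4 at 2 h, led by the receptor ERBB3 (log2 fold change -1.25, adjusted p = 3.2e-06) and the cyclin-dependent kinase inhibitor CDKN1B (log2 fold change -1.18, adjusted p = 1e-12, edgeR), near the 11% of all genes called lower. At 6 h 8 were lower and none higher, namely BCL6, PIK3IP1, MXI1, TNFSF10, PDK4, BBC3, ERBB3 and CCNG2, against 16.3% of all genes lower and 6.26% higher, and the median of the list was -0.70 against -0.03 for all genes. TNFSF10, the death ligand TRAIL, changed by -2.33 (adjusted p = 1.1e-08) and PDK4 by -2.25 (adjusted p = 2e-08). In PEO1 BRCA+ 1 was higher and 1 lower at 2 h, the cell-cycle inhibitor CDKN1A (log2 fold change 1.04, adjusted p = 5.1e-06) and PDK4 (log2 fold change -1.61, adjusted p = 0.00065). At 6 h 2 were higher, TXNIP (log2 fold change 1.48, adjusted p = 4.3e-05) and CDKN1A (log2 fold change 1.08, adjusted p = 2.9e-06), and 1 was lower. Of all genes 1.18% were called higher and 6.39% lower in PEO1 BRCA+ at 2 h, and 1.29% and 6.83% at 6 h. The difference between the lines' responses was called for 8 of the 22 targets at 6 h, each with the lower change in PEO4, against 14.8% of all genes (9.34% with the lower change in PEO4). Of the 16 genes upstream, IRS1 fell in both lines at 2 h (log2 fold change -1.50, adjusted p = 1.5e-12 in PEO1 BRCA+ and -1.73, adjusted p = 8.7e-15 in PEO4). SGK1 rose in PEO4 at 2 h (log2 fold change 1.70, adjusted p = 0.00059) and 6 h (log2 fold change 1.96, adjusted p = 0.00015). PIK3R2, a regulatory subunit of phosphoinositide 3-kinase, fell in PEO4 at 6 h (log2 fold change -1.72, adjusted p = 1.9e-13), where 1 gene of the list was higher and 2 lower. At 2 h in PEO4 1 was higher and 2 were lower, against 6.4% of all genes higher and 11% lower. In PEO1 BRCA+ 2 of the genes upstream were lower at each time, IRS1 among them, against 6.39% and 6.83% of all genes lower.

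FOXM1 changed little. In PEO4 it stood at 264, 291 and 233 CPM without drug, 228, 182 and 246 at 2 h and 363, 365 and 352 at 6 h. The 2 h values overlapped with the untreated ones, and the 6 h values were above both, with log2 fold changes of -0.26 (adjusted p = 0.0063) and 0.45 (adjusted p = 2.6e-05) by edgeR. In PEO1 BRCA+ FOXM1 stood at 563, 545 and 546, 536, 542 and 564 and 475, 465 and 492 CPM (log2 fold change -0.01, adjusted p = 0.92 and -0.21, adjusted p = 0.033). None of these passed the threshold of size, and ITFG2, on the opposite strand, changed by -0.31 and 0.20 in PEO4. None of the 19 FOXM1 targets was called by edgeR after PDS in either line. By adjusted p alone most were higher, 17 of 19 at 2 h and 10 at 6 h in PEO1 BRCA+ (26.4 and 27% of all genes) and 13 and 17 in PEO4 (33.3 and 34.6%), with median log2 fold changes of 0.39, 0.22, 0.31 and 0.39.

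FOXD1 rose in PEO4. It went from 66.2, 86.5 and 49.5 CPM to 129, 135 and 146 at 2 h and 108, 115 and 109.9 at 6 h, above every untreated library (log2 fold change 1.02, SE 0.159, adjusted p = 6.6e-05 at 2 h and 0.72, adjusted p = 0.0011 at 6 h, edgeR). The call at 2 h sits at the threshold of size, with 0.89 under library totals, 0.96 with upper-quartile scaling, a value just short of it with DESeq2 or its size factors, and 0.84 and 0.97 without replicate 3 of untreated or of 2 h PEO4. In PEO1 BRCA+ FOXD1 was at 118, 108 and 148, 109, 109 and 96 and 108, 102 and 92.5 CPM (log2 fold change -0.25, adjusted p = 0.19 and -0.31, adjusted p = 0.11). The responses of the lines differed by 1.27 (adjusted p = 0.0005) at 2 h and 1.03 (adjusted p = 0.0018) at 6 h, and the second lost its size without replicate 3 of either untreated group (0.88 and 0.85), or replicate 3 of PEO1 BRCA+ at 6 h (0.96), and sat at the threshold without replicate 2 of PEO4 at 6 h.

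Several low members of PEO4 came close to 0 after PDS. FOXI1 went from 41, 33 and 45 counts to 9, 8 and 3 at 2 h (log2 fold change -3.34, SE 0.354, adjusted p = 1.1e-08, edgeR) and 6, 2 and 0 at 6 h, a ratio of 24.8 (12.2 to 58.9) between untreated cells and 6 h, while PEO1 BRCA+ had 55, 52 and 56, 48, 57 and 43 and 53, 43 and 37 counts (log2 fold change -0.76, adjusted p = 0.014 and -0.91, adjusted p = 0.0039). The change of FOXI1 was deeper in PEO4 at both times (log2 fold change -2.58, adjusted p = 6.1e-05 and -3.66, adjusted p = 3.7e-06). FOXN1 went from 9, 7 and 30 counts to 0 in all 3 libraries at 2 h, at least 8.84-fold lower, and to 1, 0 and 0 at 6 h, a ratio of 76.8 (13.1 to 3100), whereas PEO1 BRCA+ had 0 in all 9 libraries. FOXL2 went from 4, 6 and 10 counts to 0, 5 and 0 and 3, 0 and 4, ratios of 6.98 (2.54 to 23.8) and 4.77 (1.94 to 13.4), and the second call was lost without replicate 3 of untreated PEO4 (adjusted p = 0.067). The fitted log2 fold change of FOXL2 at 2 h was -2.70, and -6.27 without replicate 2, which leaves only libraries at 0. FOXJ1 was called lower at 2 h (log2 fold change -1.74, adjusted p = 0.0076) and had a ratio of 11 (4.28 to 36.2) between untreated cells and 6 h. At 6 h 5 of the 17 ciliary targets were lower, led by TPPP3 (log2 fold change -3.30, adjusted p = 1.6e-06) and ROPN1L (log2 fold change -2.24, adjusted p = 0.0042), against 16.3% of all genes lower, and 1 at 2 h, TPPP3 (log2 fold change -1.56, adjusted p = 0.0012). In PEO1 BRCA+ none was called by edgeR at 2 h, where 2 were higher and 1 lower by adjusted p alone, and 1 at 6 h, RSPH4A (log2 fold change -2.12, adjusted p = 0.03).

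FOXS1 and FOXL1 were called lower in PEO4 at 6 h, and FOXS1 passed at 2 h by adjusted p but not by the threshold of size. FOXS1 had 19, 14 and 21 counts without drug, 20, 20 and 14 at 2 h and 8, 6 and 4 at 6 h, in treated libraries of greater depth (log2 fold change -0.79, adjusted p = 0.049 and log2 fold change -2.30, SE 0.418, adjusted p = 2.8e-05, edgeR). FOXL1 had 4, 3 and 4, 2, 9 and 4 and 0, 1 and 1 counts, with at most 9 in a library, so no fold is given (adjusted p = 0.0024 at 6 h). In PEO1 BRCA+ neither was called, and the responses differed at 6 h for both (log2 fold change -1.78, adjusted p = 0.0073 for FOXS1, with FOXL1 resting on these few counts).

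The remaining calls after PDS were decreases seen in one or both lines. FOXD3, a regulator of neural crest, was lower in PEO1 BRCA+ at both times, from 26, 33 and 26 counts to 10, 24 and 17 and 16, 24 and 16 (log2 fold change -1.35, SE 0.296, adjusted p = 0.00045 and log2 fold change -1.21, SE 0.292, adjusted p = 0.0012, edgeR). It was also lower in PEO4 at 2 h (log2 fold change -1.10, adjusted p = 0.002), with -0.93 when replicate 3 of untreated PEO4 was left out, and it shares 618 exon bases with FOXD3-AS1. FOXI3 fell at 2 h in PEO1 BRCA+ from 7.91, 7.11 and 9.4 to 3.08, 3.31 and 3.91 CPM (log2 fold change -1.24, SE 0.14, adjusted p = 7.8e-08) and in PEO4 from 5.71, 6.98 and 6.77 to 3.47, 2.66 and 3.43 CPM (log2 fold change -1.02, SE 0.144, adjusted p = 1.1e-06). At 6 h its changes were -0.68 and -0.74. In PEO4 the FOXI3 call sits at the threshold of size, with -0.96, -0.98 and -0.90 without replicate 2 or 3 of untreated or replicate 2 of treated cells, and was also lost narrowly with no filter on low counts. FOXL2 fell in PEO1 BRCA+ at 2 h (log2 fold change -1.41, SE 0.312, adjusted p = 0.00052), from 42, 74 and 68 to 38, 37 and 30 counts, and stood at 56, 50 and 57 at 6 h (log2 fold change -0.78, adjusted p = 0.03). FOXC2 fell in PEO1 BRCA+ from 26, 17 and 41 counts to 10, 12 and 12 at 2 h and 18, 4 and 12 at 6 h (log2 fold change -1.91, SE 0.431, adjusted p = 0.001 and log2 fold change -1.92, SE 0.431, adjusted p = 0.00097), and shares 231 exon bases with FOXC2-AS1 on the opposite strand.

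FOXA3 was lower in PEO1 BRCA+ at 2 h (log2 fold change -1.17, adjusted p = 0.00082, edgeR), from 35, 45 and 36 to 26, 32 and 21 counts. FOXA2 was called lower at 2 h in both lines (log2 fold change -1.07, adjusted p = 0.034 in PEO1 BRCA+ and -1.18, adjusted p = 0.015 in PEO4), but each call rested on single libraries. It had 29, 17 and 18 counts in untreated and 13, 22 and 12 in 2 h PEO1 BRCA+, and 14, 36 and 13 and 15, 13 and 21 in PEO4. Without replicate 1 of untreated PEO1 BRCA+ the FOXA2 change was -0.72 (adjusted p = 0.22), without replicate 1 or 3 of its 2 h cells it did not pass either (adjusted p = 0.087 and 0.11), and without replicate 2 of untreated PEO4 -0.47 (adjusted p = 0.35). FOXP4, a repressor of lung and neural development, fell in PEO4 at 2 h from 99.2, 106 and 108 to 46.9, 47 and 48.8 CPM (log2 fold change -1.13, SE 0.0588, adjusted p = 3.1e-14) and stood at 77.4, 78.2 and 76.9 CPM at 6 h (log2 fold change -0.43, adjusted p = 3.6e-07). FOXD2 fell in PEO4 at 2 h from 2.34, 2.71 and 2.21 to 0.861, 1.42 and 0.888 CPM (log2 fold change -1.20, SE 0.243, adjusted p = 0.00013). FOXD4 was called lower in PEO4 at 2 h on 12, 6 and 4 and 7, 7 and 2 counts, which overlap, and its reads may be shared with the FOXD4-like copies. FOXA1 had opposite changes in the lines at 2 h, -0.70 (adjusted p = 0.00035) in PEO1 BRCA+ and 0.46 (adjusted p = 0.0087) in PEO4. Neither passed the threshold of size, but their difference did (log2 fold change 1.16, SE 0.211, adjusted p = 0.00011), with 0.91 when replicate 2 of 2 h PEO4 was left out.

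FOXK1, FOXK2, FOXP1, FOXJ2, FOXJ3, FOXN2 and FOXN3 were not called after PDS in either line. The largest of their changes was that of FOXJ2 in PEO4 at 2 h (log2 fold change -0.57, adjusted p = 4e-08), and FOXK2 had -0.26 (adjusted p = 0.00037) at 2 h and 0.38 (adjusted p = 2.1e-06) at 6 h in PEO4. FOXH1 was not called either, at 23.9, 26.7 and 25.1, 25.1, 27.2 and 26.2 and 24.5, 25.1 and 24.8 CPM in PEO4 and with -0.71 and -0.34 in PEO1 BRCA+, where KIFC2 changed by -1.03 and -0.73. Of the 19 partners of forkhead box proteins none was called in PEO1 BRCA+ at either time by edgeR, against 7 higher and 6 lower at 2 h and 4 higher and 7 lower at 6 h by adjusted p alone. In PEO4 1 was higher and 2 lower at 2 h, the corepressor TLE2 (log2 fold change -2.66, adjusted p = 1.3e-07) and SMAD3 (log2 fold change 1.10, adjusted p = 2.2e-12) being the largest, and 1 higher and 1 lower at 6 h, TLE1 (log2 fold change 1.07, adjusted p = 1.9e-14) and TLE2 (log2 fold change -4.24, adjusted p = 2.3e-09). Of all genes 6.4% were called higher and 11% lower in PEO4 at 2 h, and 6.26% and 16.3% at 6 h. Neither count of the partners in PEO4 was above these shares. In PEO1 BRCA+ 7.57% and 8.13% of all genes were called at 2 h and 6 h. By adjusted p alone 26.4% were higher and 26.2% lower there at 2 h, and 27% and 26% at 6 h.

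The lines' responses to PDS differed beyond both thresholds for 9 of 35 forkhead box genes at 2 h (25.7%), against 11% of all genes (6.1% higher and 4.92% lower), and for 10 at 6 h (28.6%), against 14.8% (5.42% higher and 9.34% lower). By adjusted p alone 15 and 16 members passed, against 37.3 and 47.4% of all genes. At 2 h the change in PEO4 was above that in PEO1 BRCA+ for FOXA1, FOXC1 and FOXD1 and below it for FOXE1, FOXF2, FOXI1, FOXO1, FOXO6 and FOXQ1. At 6 h it was above for FOXC1 and FOXD1, among others, and below for FOXI1, FOXL1, FOXO1, FOXO4, FOXO6, FOXQ1 and FOXS1. The values of FOXE1 and FOXF2 at 2 h rest on groups with few counts. That of FOXE1 was lost without replicate 2 of PEO1 BRCA+ at 2 h (-2.84, adjusted p = 0.19) and was -5.65 without replicate 3 of untreated PEO1 BRCA+. That of FOXF2 was lost with the replicate number as a block (adjusted p = 0.058) and in 6 of the 18 fits that left out 1 library, namely replicate 1 of untreated PEO1 BRCA+, replicate 2 or 3 of untreated PEO4 or any replicate of PEO4 at 2 h (adjusted p from 0.051 to 0.15).

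From 2 h to 6 h none of the forkhead box genes was called in PEO1 BRCA+ by edgeR, against 0.17% of all genes (0.0705% higher and 0.0999% lower). By adjusted p alone 4 were higher, against 6.94% of all genes (3.96% higher and 2.98% lower), FOXH1 (0.38), FOXI3 (0.56), FOXJ2 (0.29) and FOXN2 (0.25), and DESeq2 with both thresholds called none. In PEO4 6 of 35 (17.1%) were called, 3 higher and 3 lower, against 12% of all genes (2.27% higher and 9.71% lower), and 16 passed by adjusted p alone, against 60.1%. FOXE1 was higher (log2 fold change 1.11, SE 0.214, adjusted p = 8.7e-05, edgeR). FOXO4 was lower (log2 fold change -1.09, SE 0.106, adjusted p = 5.5e-09), as was FOXS1 (log2 fold change -1.51, SE 0.423, adjusted p = 0.0035). FOXF2, FOXL1 and FOXD4 were called on few counts, 0, 0 and 0 and then 0, 1 and 5 for FOXF2, 2, 9 and 4 and then 0, 1 and 1 for FOXL1, and 7, 7 and 2 and then 16, 8 and 15 for FOXD4. The groups of FOXF2 overlapped, and its call was lost in 11 of the 18 fits that left out 1 library (replicate 1 of untreated, any of 2 h or replicate 2 of 6 h PEO1 BRCA+, and replicate 3 of untreated, any of 2 h or replicate 2 or 3 of 6 h PEO4). Without replicate 3 of PEO4 at 6 h it was 2.12 (adjusted p = 0.3). It was also lost with upper-quartile scaling (adjusted p = 0.051), with no filter on low counts (0.055) and with the replicate number as a block (0.072). The call of FOXL1 was lost without replicate 2 of PEO4 at 2 h (adjusted p = 0.098).

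In treated cells the lines differed at 14 of 35 forkhead box genes at 2 h (40%), 3 higher and 11 lower in PEO4, against 26.5% of all genes (13.9% higher and 12.6% lower), and at 11 at 6 h (31.4%), 2 higher and 9 lower, against 23% (9.52% higher and 13.5% lower). By adjusted p alone 27 and 23 members passed, against 72.9 and 68.6% of all genes. FOXE1 and FOXH1 were higher in PEO4 at both times, but the part of KIFC2, which shares exon bases with FOXH1, was not tested. FOXQ1, which was higher in PEO4 without drug, was lower at both times (log2 fold change -4.47, SE 0.585, adjusted p = 1.3e-05 and log2 fold change -4.42, SE 0.569, adjusted p = 1.3e-05, edgeR). FOXO1 was lower by more than in untreated cells (-2.70 and -2.90, against -1.14), as its values above show. FOXF2 was at least 197-fold lower in PEO4 at 2 h, with a floor of 3 counts per library, and 368-fold lower at 6 h (169 to 1010), and FOXC2 at least 4.09-fold and at least 3.8-fold lower. FOXL2 was 22.8-fold (9.48 to 71.7) and 24.2-fold (11.5 to 61.2) lower, and its fitted log2 fold change at 2 h went from -4.39 to -7.98 without replicate 2 of PEO4, the one library there with counts. FOXM1 was called lower in PEO4 at 2 h (-1.32) and not at 6 h (-0.41).

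Sequence windows before the start sites were found for 34 of the 45 genes, in 45 windows of 250 bases from RefSeq (GRCh38.p14). The G-quadruplex pattern given above was present in 25 of them (55.6%), against 23.5% of 35116 windows of 27305 genes. GGGCGG, the core of the GC box, was found in 66.7% of the forkhead box windows and 42.6% of all windows. TGTTTAC, a core sequence bound by forkhead proteins, was found in 2.22% and 2.98%, and TATAAA in 6.67% and 10.7%, each searched on both strands. The median GC content was 67.6% against 58%. GGGCGG can overlap with the G-quadruplex pattern, and neither is evidence of a fold or of binding in these cells. Of the genes shown above, FOXQ1, with no match, fell in PEO4, FOXE1, with 1 match, fell too, and FOXC1, with 1 match, rose. FOXF2, with 3 matches, was not called in PEO1 BRCA+ (-0.08 and 0.29) and was near 0 in PEO4. Of the other members called lower in PEO4 after PDS, FOXD2, FOXD3, FOXI1, FOXI3, FOXN1, FOXO1, FOXO6 and FOXP4 held a match. FOXD4, FOXL2 and FOXO4 held none, and FOXA2, FOXJ1, FOXL1 and FOXS1 had no window. FOXD1, which rose, held none. Of the tested members not called after PDS in either line, FOXA1, FOXJ2, FOXJ3, FOXK1, FOXO3 and FOXP1 held a match as well. FOXK2, FOXN3 and FOXP3 held none, and FOXH1, FOXM1 and FOXN2 had no window. The relation between the matches and the response to PDS was not tested.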

How the data were processed

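The authors deposited raw counts per gene in 2 tables, 1 of 6 libraries and 1 of 18, made from paired-end sequencing of polyadenylated RNA. The submitters' processing notes name FastQC, fastp, STAR, featureCounts and hg38. The annotation and the strand setting of the counting are not given in the sources used here. Per the labels each condition has 3 biological replicates. Lines naming no gene were left out (2 and 1). Each table was filtered (filterByExpr, minimum count 10, minimum total 15), scaled by TMM and fitted with the quasi-likelihood method of edgeR 4.0.16 in R 4.3.3, all groups of a table together, on 15882 and 17020 genes, with p-values adjusted by Benjamini-Hochberg over all of them. CPM uses the TMM-scaled totals, CPM per kb the GENCODE 44 exon length. The 2 tables were normalised separately, so levels were compared within a table. Exact intervals (95%) cover counting error only. Genes were named if called in the comparisons of lines or of PDS. The members and lists were chosen with earlier results of these data known. Counts cover all members and list genes tested, of which 2 genes are not reported here by name. The scripts were tested on simulated counts. Alternatives were other scalings, DESeq2 1.42.0, no filter, adjusted p alone, only the groups compared, the replicate number as a block, and each library left out.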

Additional observations from a re-analysis of the deposited data

Results flagged for a closer look

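The response to PDS differed between PEO4 and PEO1 BRCA+ by the test of the difference itself (interaction term in edgeR, Benjamini-Hochberg adjusted over all genes), given here as the log2 change in PEO4 minus that in PEO1 BRCA+ with its SE. At 2 h the difference was -7.71 ± 0.702 for FOXQ1, -3.42 ± 1.11 for FOXE1, -2.58 ± 0.446 for FOXI1, -2.39 ± 0.229 for FOXO6 and -1.57 ± 0.179 for FOXO1. It was 1.89 ± 0.196 for FOXC1, 1.27 ± 0.223 for FOXD1 and 1.16 ± 0.211 for FOXA1 at the same time. FOXF2 had -4.52 ± 1.65, a fitted value that depends on libraries with 0 counts. The value of FOXE1 rests on at most 7 counts in a library of PEO1 BRCA+. Its call was lost without replicate 2 of PEO1 BRCA+ at 2 h (-2.84, adjusted p = 0.19, edgeR).

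At 6 h the difference was -7.66 ± 0.69 for FOXQ1, -3.66 ± 0.522 for FOXI1, -2.52 ± 0.238 for FOXO6, -1.76 ± 0.181 for FOXO1, -1.59 ± 0.155 for FOXO4 and -1.78 ± 0.526 for FOXS1. It was 1.46 ± 0.197 for FOXC1 and 1.03 ± 0.223 for FOXD1. FOXL1 had -2.86 ± 0.836 on at most 9 counts in a library of PEO4. The 2 times share their untreated libraries, so the values at 6 h are not a separate test of those at 2 h. Depth and the share of ribosomal RNA counts differed between treated and untreated libraries in both lines, and their part was not tested.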

How the results depend on the processing

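The fold changes of 113 pairs of gene and comparison, each already called in the results above, were recomputed under the alternatives. This gave 2584 values, of which 2528 kept their direction and side of the thresholds, 56 lost the call and 0 changed direction. In the PDS set each of the 18 libraries was left out in turn, also those outside the groups compared. Many of these fits left the compared groups whole, so the large share of unchanged values is partly built in. With adjusted p alone the number of called forkhead box genes was 25 between untreated PEO4 and PEO1 BRCA+, 19 and 13 in PEO1 BRCA+ at 2 h and 6 h, 29 and 26 in PEO4, 4 and 16 from 2 h to 6 h in PEO1 BRCA+ and PEO4, 27 and 23 between treated lines, and 15 and 16 for the difference in response, since this alternative drops the threshold of size. PEO1 BRCA+ at 6 h had 5 called genes with library totals and 5 with upper-quartile scaling, against 3. PEO4 from 2 h to 6 h had 3 with only the groups compared in the fit, against 6. The cause was not tested.

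With 1 library left out the counts were 19 to 21 between the lines of the untreated set and 14 to 17 in the PDS set, 5 to 7 and 2 to 4 in PEO1 BRCA+, 13 to 17 and 12 to 14 in PEO4, 0 to 0 and 4 to 7 from 2 h to 6 h, 14 to 15 and 11 to 12 between treated lines, and 8 to 9 and 9 to 10 for the difference in response. With the replicate number as a block the counts were 20 and 16 between the untreated lines, 6 and 3 in PEO1 BRCA+, 17 and 13 in PEO4, 0 and 5 from 2 h to 6 h, 14 and 11 between treated lines, and 8 and 10 for the difference in response, so that only PEO4 from 2 h to 6 h (6 without it) and the difference in response at 2 h (9 without it) moved. Libraries of the same number did not deviate together (correlations from -0.0429 to 0.0228 in the untreated set and from -0.158 to 0.134 in the PDS set), so the number was not read as a pairing. Depth limits the members with fewer than 10 counts in a library.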

Other observations

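Among the untreated PEO4 libraries FOXQ1 and its neighbour FOXC1 had opposite orders, as did FOXQ1 and FOXD1. In the PDS set the library with the lowest FOXQ1 (59.1 CPM, replicate 2) had the highest FOXC1 (13.2 CPM) and FOXD1 (86.5 CPM), and the one with the highest FOXQ1 (247 CPM, replicate 3) the lowest FOXC1 (7.23 CPM) and FOXD1 (49.5 CPM). In the untreated set the library with the highest FOXQ1 (138 CPM, replicate 1) had the lowest FOXC1 (4.56 CPM) and FOXD1 (9.45 CPM). With 3 libraries in a group no test was made, and the pattern was noticed after the values were seen.

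Some members stood at different levels in the untreated cells of the 2 sets, which were normalised separately and are set side by side only. FOXS1 was at 16.7 CPM in PEO1 BRCA- and 1.11 CPM in PEO1 BRCA+. FOXD1 was at 14.9 CPM in PEO4 of the untreated set and 67.4 CPM in PEO4 of the PDS set, and FOXE1 at 5.92 and 28.8 CPM. FOXH1, which shares exon bases with KIFC2, was at 0.179 CPM in PEO1 BRCA- and 8.3 CPM in PEO1 BRCA+. In PEO4 FOXH1 was at 0.313 CPM in the untreated set and 25.2 CPM in the PDS set.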
